A study of Mus musculus with 16 samples.

Results

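The genes described here are those of antigen presentation to helper T cells: the class II transactivator Ciita, the class II chains H2-Aa, H2-Ab1 and H2-Eb1, their chaperone Cd74, the peptide exchange factor subunits H2-DMa and H2-DMb1, and the costimulatory molecules Cd40, Cd80 and Cd86. They were taken by symbol from the deposited count table, in which all 10 were found among 56748 genes, and all 10 were among the 13438 genes that passed the filter on low counts. The libraries came from bone marrow-derived macrophages, which are macrophages grown in culture from marrow with supernatant of L929 cells, from 4 male wild-type C57BL6 mice. Each mouse gave 1 library to each of 4 groups: SR9009 and LPS, SR9009, LPS, and DMSO. SR9009, a compound that activates the circadian repressors REV-ERBα and REV-ERBβ, was given at 10 µM for 16 h, and lipopolysaccharide (LPS), a bacterial product sensed through Toll-like receptor 4, at 100 ng/mL for 6 h. DMSO was the vehicle, and the labels of the LPS group do not state whether these cells had DMSO overnight. The cells of all groups were grown in L929-conditioned medium.

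Class II molecules are pairs of an α and a β chain that carry peptides of engulfed proteins to the cell surface. Cd74, the invariant chain, fills the groove of the new pair, and the DM heterodimer later exchanges the remaining Cd74 fragment for peptide. Ciita does not bind DNA itself: it is recruited to the X and Y boxes in front of class II genes by the factors RFX, CREB and NF-Y, and it sets the rate at which these genes are transcribed. Cd80 and Cd86 bind CD28 and CTLA-4 on T cells, and Cd40 receives the T cell ligand CD40L. Macrophages are known to make little class II until interferon gamma induces Ciita, and to raise Cd40 and Cd86 when Toll-like receptors are engaged.

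Some class II promoters hold the boxes that the partners of Ciita bind. RefSeq promoter sequences (build GRCm38.p6, 250 bases before to 50 bases after the start) were found for 5 of the 10 genes, namely H2-Aa, H2-Eb1, H2-DMa, H2-DMb1 and Cd80. The X box core was searched as CTNGNAAC and the Y box core as TGATTGG, on both strands, with letters and spacing chosen after these promoters had been read. The motifs do not overlap in the sequences below, where capitals mark the X box core first and the Y box core second. They are shown because they hold both boxes.
H2-Aa, chr17:34287774-34288073, minus strand: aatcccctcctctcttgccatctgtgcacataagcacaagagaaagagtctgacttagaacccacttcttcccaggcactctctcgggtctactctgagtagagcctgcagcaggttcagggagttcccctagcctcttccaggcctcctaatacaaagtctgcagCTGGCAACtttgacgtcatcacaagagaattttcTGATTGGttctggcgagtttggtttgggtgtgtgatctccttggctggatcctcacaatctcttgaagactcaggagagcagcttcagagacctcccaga
H2-Eb1, chr17:34305617-34305916, plus strand: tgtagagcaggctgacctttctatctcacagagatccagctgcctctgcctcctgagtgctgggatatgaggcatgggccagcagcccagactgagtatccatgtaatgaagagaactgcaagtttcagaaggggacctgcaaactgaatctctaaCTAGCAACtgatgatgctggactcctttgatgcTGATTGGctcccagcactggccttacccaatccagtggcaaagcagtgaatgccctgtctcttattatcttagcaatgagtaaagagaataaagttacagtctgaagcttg
H2-DMb1, chr17:34152941-34153240, plus strand: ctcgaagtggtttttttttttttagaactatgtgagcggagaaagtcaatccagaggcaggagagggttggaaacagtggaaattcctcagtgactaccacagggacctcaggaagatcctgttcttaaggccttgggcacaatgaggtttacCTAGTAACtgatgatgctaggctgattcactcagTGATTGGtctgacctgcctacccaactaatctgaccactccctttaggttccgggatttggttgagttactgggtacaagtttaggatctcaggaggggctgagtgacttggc
Between the cores lie 26 bases in H2-Aa, 25 in H2-Eb1 and 26 in H2-DMb1. Of 32851 promoters of 300 bases in the table, 13.2% held the X box core, 7.82% the Y box core and 1.07% both. A pair in this order with 20 to 40 bases between was found in 16 promoters (0.0487%), which belong to 14 genes, the fourth class II gene among them being H2-Ob. The promoters of Cd80 and H2-DMa in the table did not hold these letters.

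**Figure D1:**
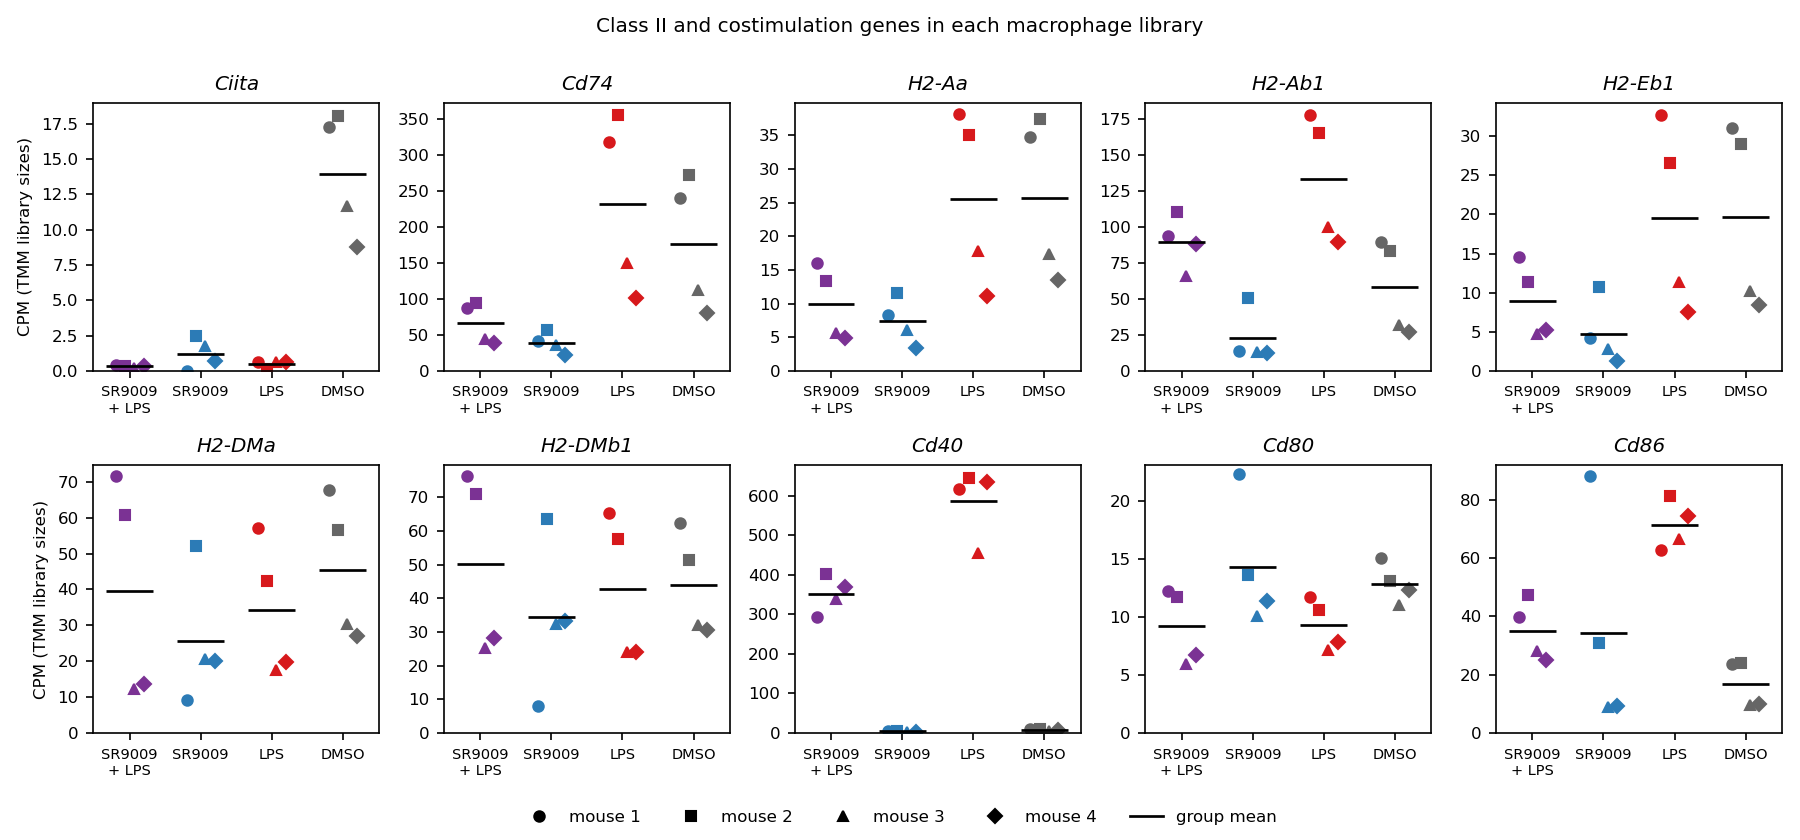
Levels in CPM (counts scaled to TMM-adjusted library sizes) of the 10 genes in each of the 16 libraries, with a panel per gene, a marker per mouse and a line at the group mean over 4 mice. Ciita stood between 8.78 and 18.1 CPM in DMSO and at or below 2.45 CPM in the other groups, while Cd40 stood at or above 292 CPM in every library given LPS and at or below 11.0 CPM in every library without.

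Levels are given as CPM, and levels of different genes are set side by side only in FPKM, the authors' deposited value per kilobase of gene. Total counts ran from 12616442 to 24214863 per library. The SR9009 library of mouse 1 had the lowest total and 13298 genes with a count, against 16419 to 18947 in the others, and it stood at 185 on the second principal component, which held 23.1% of the variance. Values without it are given beside the results that it changes most. Without it, edgeR called 0.696% of tested genes higher and 1.08% lower with SR9009 versus DMSO, 6.68% and 4.79% with SR9009 and LPS versus LPS, and 26.8% and 30.6% with LPS versus DMSO. The macrophage label was checked against 12 markers such as Adgre1, Csf1r and Cd68, which all passed the filter and summed to 13350 to 16600 CPM in SR9009 and LPS, 7666 to 14390 CPM in SR9009, 15040 to 18360 CPM in LPS and 12150 to 18040 CPM in DMSO. The 7666 CPM was that of the SR9009 library of mouse 1, where single markers went both ways. With SR9009, C1qa had 93.4, 1352, 994 and 821 CPM in mice 1 to 4. Mrc1 had 1609, 660, 482 and 439 CPM there. Lyz2, also among the 12, ran from 9.225 to 54.65 CPM over all libraries. Dendritic cells, which carry far more class II, could also grow from marrow. Their 10 markers summed to 6.10 to 12.0 CPM in SR9009 and LPS, 5.36 to 8.66 CPM in SR9009, 6.41 to 17.6 CPM in LPS and 3.74 to 9.56 CPM in DMSO. Of these, 4 passed the filter, Cd209a was at 0 in every library, and Flt3 did not exceed 0.231 CPM. Itgax ran from 2.57 to 7.65 CPM over all libraries. Ccr7 had 7.99, 3.28, 1.29 and 1.36 CPM in mice 1 to 4 with LPS, against 1.05, 0.846, 0.0669 and 0.0986 CPM with DMSO. T and NK cell markers summed to at most 11.9 CPM in any library, neutrophil and granulocyte precursor markers to at most 7.24 CPM, and fibroblast or stroma markers to at most 1.57 CPM. In bulk libraries, fewer cells of a type and less RNA per cell cannot be told apart.

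Among the 10 genes, the per-length order began with Cd74 in SR9009 and in DMSO and with Cd40 in both groups given LPS. Cd40 averaged 102 ± 13.6 FPKM in SR9009 and LPS, 1.14 ± 0.48 FPKM in SR9009, 174 ± 27.8 FPKM in LPS and 2.34 ± 0.69 FPKM in DMSO (SD, n = 4 each). Cd74 averaged 39.3 ± 17.4 FPKM in SR9009 and LPS, 22.4 ± 8.22 FPKM in SR9009, 140 ± 77.4 FPKM in LPS and 102 ± 54.1 FPKM in DMSO (SD, n = 4 each). Ciita was last in all 4 groups, with means of 0.0351 FPKM in SR9009 and LPS, 0.12 FPKM in SR9009, 0.0546 FPKM in LPS and 1.42 FPKM in DMSO.

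SR9009 without LPS was compared with DMSO to ask what the REV-ERB agonist did in resting macrophages. Ciita and the class II chaperone Cd74 were called lower with SR9009 by edgeR, and limma-voom called Ciita alone. Of the 10 genes, 0 were called higher and 2 lower by edgeR's quasi-likelihood test at a Benjamini-Hochberg adjusted p under 0.05, where 0.313% of all tested genes were called higher and 0.566% lower. The median log2 fold change was -1.19 over the 10 genes and 0.01 over all tested genes. It was -1.81 over the 7 class II genes, Ciita included, and 0.15 over the 3 costimulatory genes. Over 10 genes of MHC class I presentation, listed below for comparison, it was -0.70. The libraries of the groups did not overlap for Ciita, Cd74, H2-Aa and Cd40, all lower with SR9009, a pattern found in 4.64% of tested genes.

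Ciita (ENSMUSG00000022504, GRCm39 chr16:10297923-10346282, plus strand) had 0, 2.45, 1.73 and 0.711 CPM in mice 1 to 4 with SR9009, against 17.3, 18.1, 11.7 and 8.78 CPM with DMSO. The 4 SR9009 libraries all lay below the lowest DMSO library. Ciita was 11.1-fold lower (log2 -3.47, SE 0.67, edgeR adjusted p = 0.0232, lower in 4 of 4 mice). The 0 in mouse 1 came from the shallowest library, whose limit for a count of 0 (3 counts) is 0.209 CPM. Without that library the log2 fold change was -3.14 (edgeR adjusted p = 0.00259). The call passed in 12 of 16 alternatives. It was lost when only SR9009 and DMSO libraries were fitted and without mouse 2, mouse 3 or mouse 4, with an edgeR adjusted p of up to 0.329. Ciita overlaps Dexi, a gene on the opposite strand, and the strand setting of the counting is not given in the sources used here. Whether reads of Dexi were counted for Ciita was not tested. Dexi had 3.62 to 16.7 CPM in SR9009 and 14.7 to 18.1 CPM in DMSO (edgeR adjusted p = 0.688). The 3.62 CPM was that of mouse 1, whose SR9009 library held no Ciita count.

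Cd74 (ENSMUSG00000024610, GRCm39 chr18:60936920-60945724, plus strand) had 41.5, 57.0, 36.3 and 22.1 CPM in mice 1 to 4 with SR9009, against 241, 273, 113 and 81.2 CPM with DMSO. The highest SR9009 library lay below the lowest DMSO library, and mice 1 and 2 stood above mice 3 and 4 in both groups. Cd74 was 4.51-fold lower (log2 -2.17, SE 0.49, edgeR adjusted p = 0.0470). Its edgeR adjusted p was 0.0622 without the SR9009 library of mouse 1 and 0.152 to 0.259 without any one mouse, which ends the call, and 0.000102 with mouse as a replicate block. Over 16 alternatives the log2 fold change stayed between -2.30 and -1.97, and the call passed in 5 of them.

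The class II chains were lower with SR9009 in each mouse but were not called by edgeR without the block. DESeq2 called H2-Aa and H2-Eb1 lower, and limma-voom called neither. H2-Aa, the α chain of I-A (ENSMUSG00000036594, GRCm39 chr17:34501718-34506797, minus strand), had 8.36, 11.5, 6.04 and 3.46 CPM with SR9009, against 34.8, 37.4, 17.4 and 13.5 CPM with DMSO. The groups did not overlap, and the log2 fold change was -1.81 (SE 0.51, edgeR adjusted p = 0.157, and 0.000468 with the block). H2-Eb1, the β chain of I-E (ENSMUSG00000060586, GRCm39 chr17:34524841-34535648, plus strand), had 4.18, 10.7, 2.78 and 1.25 CPM with SR9009, against 31.1, 29.0, 10.3 and 8.38 CPM with DMSO. Its groups overlapped through mouse 2, and its log2 fold change was -2.05 (SE 0.66, edgeR adjusted p = 0.240, and 0.00277 with the block). C57BL/6 mice are known to lack surface I-E because H2-Ea is not expressed, and H2-Ea had no count in any group here. H2-Ab1, the β chain of I-A (ENSMUSG00000073421, GRCm39 chr17:34476663-34488393, plus strand), had 13.8, 51.1, 13.2 and 12.6 CPM with SR9009, against 89.65, 83.5, 31.9 and 27.2 CPM with DMSO. Mouse 2 stood well above the other SR9009 libraries and inside the DMSO range, and the log2 fold change was -1.35 (SE 0.49, edgeR adjusted p = 0.300, and 0.0581 with the block).

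The DM subunits were not called. H2-DMb1 (ENSMUSG00000079547, GRCm39 chr17:34372046-34379204, plus strand) had 8.08, 63.6, 32.4 and 33.1 CPM with SR9009, against 62.4, 51.2, 32.1 and 30.5 CPM with DMSO. Only mouse 1, whose SR9009 library stands apart, was lower, and the log2 fold change of -0.36 (SE 0.53, edgeR adjusted p = 0.822) was -0.07 without that library. H2-DMa (ENSMUSG00000037649, GRCm39 chr17:34338515-34358075, plus strand) had 9.27, 52.2, 20.7 and 20.1 CPM with SR9009, against 67.7, 56.6, 30.4 and 27.1 CPM with DMSO. It was lower in 4 of 4 mice, most in mouse 1, by a log2 of -0.83 (SE 0.62, edgeR adjusted p = 0.636). The log2 fold change of H2-DMa was -0.59 without that library and -1.32 to -0.33 with a mouse left out. H2-DMb1 has a near-identical copy, H2-DMb2, between which reads can be split, and H2-DMb2 itself was near 0 with a mean of 0.51 CPM in SR9009 and 1.27 CPM in DMSO.

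Among the costimulatory genes, Cd40 (ENSMUSG00000017652, GRCm39 chr2:164897547-164914868, plus strand) had 5.57, 4.93, 2.09 and 3.52 CPM with SR9009, against 9.33, 11.0, 5.68 and 6.77 CPM with DMSO. The groups did not overlap, the log2 fold change was -1.03 (SE 0.28), and the edgeR adjusted p was 0.140, 0.0336 with the block and 0.0335 without the SR9009 library of mouse 1. Cd86 (ENSMUSG00000022901, GRCm39 chr16:36424231-36486443, minus strand) had 87.9, 30.8, 8.78 and 9.11 CPM with SR9009, against 23.7, 24.0, 9.46 and 10.0 CPM with DMSO. The high value was that of mouse 1 alone, and the log2 fold change of 1.02 (SE 0.58, edgeR adjusted p = 0.509) was -0.08 without that library. Cd80 (ENSMUSG00000075122, GRCm39 chr16:38275923-38316697, plus strand) ran from 10.1 to 22.3 CPM with SR9009, against 11.1 to 15.1 CPM with DMSO, and was higher in 2 mice and lower in 2. Its log2 fold change was 0.15 (SE 0.30, edgeR adjusted p = 0.863). With the block, 5 of the 10 genes were called lower and 0 higher, where 0.96% of tested genes were called lower: Ciita, Cd74, H2-Aa, H2-Eb1 and Cd40.

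**Figure D2:**
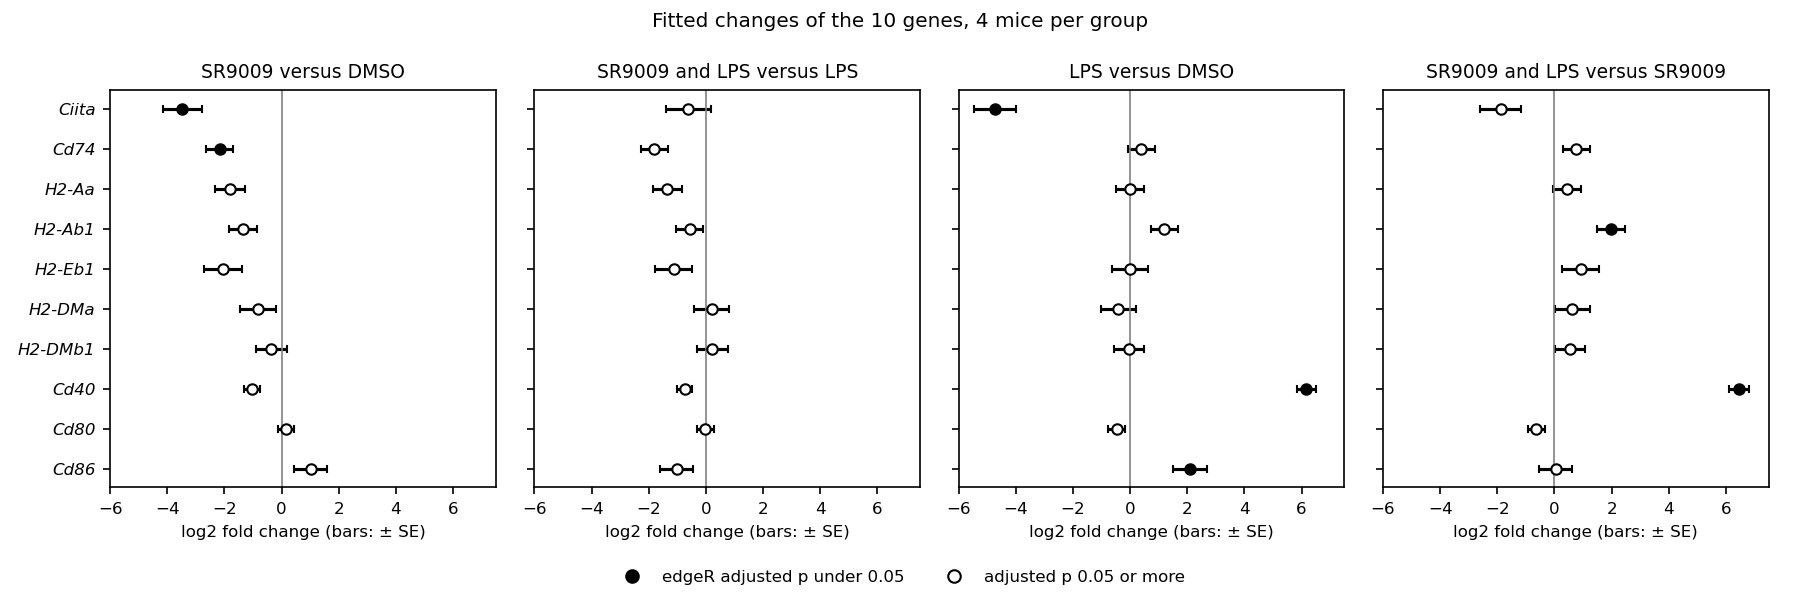
Fitted log2 fold changes of the 10 genes in 4 comparisons (horizontal axis, first named group over second, bars ± SE, 4 mice per group), with filled points where the edgeR adjusted p was under 0.05. Ciita and Cd74 are filled with SR9009, no gene is filled for SR9009 and LPS versus LPS, and Cd40 lies at 6.16 and 6.45 in the comparisons for LPS.

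SR9009 and LPS was compared with LPS to ask what the agonist changed in macrophages that then met LPS. Of the 10 genes, 0 were called by edgeR in either direction, where 1.06% of all tested genes were called higher and 0.737% lower. Without adjustment, 3 had p under 0.05 (Cd74, H2-Aa and Cd40), DESeq2 called 1 (Cd74, lower) and limma 0. Shares of all tested genes were not taken for these counts, which are not read as results about these genes. The median log2 fold change was -0.68 over the 10 genes and 0.02 over all tested genes. It was -0.62 over the 7 class II genes, Ciita included, and -0.745 over the 3 costimulatory genes. Over the 10 genes of MHC class I presentation it was -0.54. The groups did not overlap for Cd74, Cd40 and Cd86, all lower with SR9009 and LPS, a pattern found in 7.78% of tested genes.

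Cd74 had 87.6, 94.2, 44.2 and 39.5 CPM in mice 1 to 4 with SR9009 and LPS, against 319, 357, 149.6 and 102 CPM with LPS. Each mouse was lower, by a log2 ratio of -1.36 to -1.92. The fitted log2 fold change was -1.80 (SE 0.48), and the edgeR adjusted p was 0.0735, 0.000751 with the block and 0.0324 without the SR9009 library of mouse 1. H2-Aa had 16.0, 13.4, 5.58 and 4.86 CPM with SR9009 and LPS, against 38.1, 35.0, 17.9 and 11.2 CPM with LPS. The ranges overlapped because mice 1 and 2 were high in both groups, and each mouse was lower. The log2 fold change was -1.35 (SE 0.51, edgeR adjusted p = 0.223, and 0.00238 with the block). With the block these 2 were called lower, as were 1.78% of tested genes.

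H2-Eb1 had 14.5, 11.3, 4.67 and 5.27 CPM with SR9009 and LPS, against 32.7, 26.6, 11.4 and 7.56 CPM with LPS (log2 -1.13, SE 0.65, edgeR adjusted p = 0.485). H2-Ab1 had 93.9, 111, 65.9 and 88.5 CPM with SR9009 and LPS, against 178, 165.5, 100.2 and 89.9 CPM with LPS (log2 -0.57, SE 0.48, edgeR adjusted p = 0.689). Both were lower in 4 of 4 mice with overlapping groups, and mouse 4 differed least. Ciita was near its limit of detection in both groups, with 23 counts over the 4 libraries of SR9009 and LPS and 29 over those of LPS. It ran from 0.228 to 0.411 CPM with SR9009 and LPS, against 0.152 to 0.666 CPM with LPS, and a difference was not detectable at this depth (log2 -0.62, SE 0.79, edgeR adjusted p = 0.824).

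H2-DMb1 had 76.2, 71.0, 25.2 and 28.1 CPM with SR9009 and LPS, against 65.3, 57.5, 24.0 and 24.0 CPM with LPS. It was the only one of the 10 that was higher in 4 of 4 mice, by a log2 of 0.23 (SE 0.53, edgeR adjusted p = 0.920). H2-DMa had 71.6, 60.6, 12.3 and 13.6 CPM with SR9009 and LPS, against 57.2, 42.2, 17.5 and 19.9 CPM with LPS, with mice 1 and 2 higher and mice 3 and 4 lower (log2 0.21, SE 0.62, edgeR adjusted p = 0.946). H2-DMa overlaps Brd2, an abundant gene on the opposite strand. Brd2 had 1001, 852, 389 and 395 CPM with SR9009 and LPS, against 576, 482, 432 and 441 CPM with LPS. It was likewise higher in mice 1 and 2 and lower in mice 3 and 4. Brd2 was called higher with LPS versus DMSO (log2 0.95, SE 0.32, edgeR adjusted p = 0.0272). H2-DMa was lower there in 4 of 4 mice. With SR9009 and LPS versus SR9009, Brd2 was again called higher (log2 1.80, SE 0.33, edgeR adjusted p = 0.000628). H2-DMa was higher there in mice 1 and 2 and lower in mice 3 and 4. The part of Brd2 in the H2-DMa counts was not tested.

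Cd40 had 292, 402, 339 and 369 CPM with SR9009 and LPS, against 616, 646, 455.5 and 634 CPM with LPS. Every SR9009 and LPS library lay below every LPS library, and the log2 fold change was -0.75 (SE 0.27, edgeR adjusted p = 0.206, and 0.0826 with the block). Cd86 had 39.8, 47.4, 28.0 and 25.0 CPM with SR9009 and LPS, against 62.7, 81.1, 66.4 and 74.5 CPM with LPS. These groups did not overlap either, with a log2 of -1.02 (SE 0.58, edgeR adjusted p = 0.479, and 0.202 with the block). Cd80 ran from 5.98 to 12.3 CPM with SR9009 and LPS, against 7.15 to 11.7 CPM with LPS (log2 -0.02, SE 0.30, edgeR adjusted p = 0.989).

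LPS was compared with DMSO to show the response of these genes to the bacterial product alone. Ciita fell, Cd40 and Cd86 rose, and the class II chains H2-Aa and H2-Eb1 were not called in either direction. Of the 10 genes, 2 were called higher and 1 lower by edgeR, where 19.4% of all tested genes were called higher and 20.4% lower. The median log2 fold change was -0.01 over the 10 genes and -0.08 over all tested genes. The groups did not overlap for 3 genes that were higher with LPS (Cd40, Cd86 and H2-Ab1) and 1 that was lower (Ciita), patterns found in 27.0% and 30.5% of tested genes.

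Ciita had 0.666, 0.152, 0.616 and 0.642 CPM in mice 1 to 4 with LPS, against the DMSO values above, of which the lowest was 8.78 CPM. Ciita was 26.5-fold lower with LPS (log2 -4.73, SE 0.74, edgeR adjusted p = 0.000111, lower in 4 of 4 mice). Dexi, which overlaps it, had 4.38 to 9.91 CPM with LPS and 14.7 to 18.1 CPM with DMSO, and was also lower (log2 -1.17, SE 0.37, edgeR adjusted p = 0.0199). The LPS library of mouse 2 held 2 counts of Ciita beside 9.91 CPM of Dexi. The part of Dexi in the Ciita counts was not tested.

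Several class II genes that Ciita is known to activate were measured beside it. H2-Aa had 38.1, 35.0, 17.9 and 11.2 CPM with LPS, against 34.8, 37.4, 17.4 and 13.5 CPM with DMSO, and the values of each mouse nearly coincided (log2 -0.01, SE 0.50, edgeR adjusted p = 0.988). H2-Eb1 gave a log2 of -0.01 (SE 0.63, edgeR adjusted p = 0.994), with 2 mice higher and 2 lower. Cd74 was higher in 4 of 4 mice, with log2 ratios of 0.33 to 0.41 per mouse, a fitted log2 of 0.39 (SE 0.47) and an edgeR adjusted p of 0.541, or 0.0897 with the block. H2-Ab1 had 178, 165.5, 100.2 and 89.9 CPM with LPS, against 89.65, 83.5, 31.9 and 27.2 CPM with DMSO. Its lowest LPS library lay just above its highest DMSO library, and the log2 fold change was 1.20 (SE 0.48). The edgeR adjusted p of H2-Ab1 was 0.0598, 0.00525 with the block and 0.0448 without the SR9009 library of mouse 1, and DESeq2 and limma-voom called it higher. H2-DMa (log2 -0.41, SE 0.62, edgeR adjusted p = 0.634) and H2-DMb1 (log2 -0.04, SE 0.53, edgeR adjusted p = 0.957) were not called.

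Cd40 had 616, 646, 455.5 and 634 CPM with LPS, against 9.33, 11.0, 5.68 and 6.77 CPM with DMSO. It rose 71.7-fold (log2 6.16, SE 0.34, edgeR adjusted p = 8.32e-09), in 4 of 4 mice. Cd86 had 62.7, 81.1, 66.4 and 74.5 CPM with LPS, against 23.7, 24.0, 9.46 and 10.0 CPM with DMSO. It rose 4.24-fold (log2 2.09, SE 0.60, edgeR adjusted p = 0.0110) in 4 of 4 mice, and the groups did not overlap. The edgeR adjusted p of Cd86 was 0.0551 without mouse 2 and 0.0510 without mouse 4. Cd80, the other CD28 ligand, had 11.7, 10.6, 7.15 and 7.85 CPM with LPS, against 15.1, 13.1, 11.1 and 12.3 CPM with DMSO. Each mouse was lower, the groups overlapped, and the log2 fold change was -0.47 (SE 0.30, edgeR adjusted p = 0.236, and 0.0493 with the block). With the block, 3 of the 10 genes were called higher and 2 lower, where 21.3% and 23.7% of tested genes were.

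SR9009 and LPS was compared with SR9009 to show the response to LPS in macrophages already given the agonist. Of the 10 genes, 2 were called higher and 0 lower by edgeR, where 14.5% of all tested genes were called higher and 15.8% lower. Cd40 rose 87.4-fold (log2 6.45, SE 0.35, edgeR adjusted p = 1.24e-08) and H2-Ab1 rose 3.95-fold (log2 1.98, SE 0.50, edgeR adjusted p = 0.00642). Both were higher in 4 of 4 mice and their groups did not overlap, which held for 13.9% of tested genes in this direction. H2-Ab1 had 93.9, 111, 65.9 and 88.5 CPM with SR9009 and LPS, against 13.8, 51.1, 13.2 and 12.6 CPM with SR9009, so that mouse 2 differed least.

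Ciita had 0.411, 0.353, 0.228 and 0.356 CPM with SR9009 and LPS, against 0, 2.45, 1.73 and 0.711 CPM with SR9009. It was lower in 3 of 4 mice, the exception being the library with no count, and the log2 fold change was -1.88 (SE 0.72, edgeR adjusted p = 0.0607). Without the SR9009 library of mouse 1 it was -2.19 (edgeR adjusted p = 0.00181). Cd74 was higher in 4 of 4 mice (log2 0.76, SE 0.47, edgeR adjusted p = 0.243, and 0.00674 with the block), as was H2-Eb1 (log2 0.92, SE 0.65, edgeR adjusted p = 0.314, and 0.0126 with the block). H2-Aa was higher in 3 of 4 mice (log2 0.44, SE 0.50, edgeR adjusted p = 0.550). Cd86 gave a log2 of 0.04 (SE 0.58, edgeR adjusted p = 0.968) with all libraries and 1.17 (edgeR adjusted p = 0.0489) without the SR9009 library of mouse 1. Cd80 was lower in 4 of 4 mice (log2 -0.64, SE 0.30, edgeR adjusted p = 0.120, and 0.0198 with the block), and -0.29 (edgeR adjusted p = 0.410) without that library. H2-DMa (log2 0.63, SE 0.62) and H2-DMb1 (log2 0.55, SE 0.53) were higher in mice 1 and 2 and lower in mice 3 and 4. With the block 4 genes were called higher and 1 lower, where 16.4% and 17.6% of tested genes were. Without the SR9009 library of mouse 1, 3 were called higher and 1 lower, where 22.7% and 20.8% of tested genes were.

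Whether the SR9009 effect differed with and without LPS was tested by the interaction. Of the 10 genes, 0 were called by edgeR, where 0.00744% of all tested genes were called in either direction. At an unadjusted p under 0.05 there were 2, DESeq2 and limma-voom called 0, and limma on log2 FPKM called 1, Ciita. These counts too have no share of all tested genes beside them. The interaction was 2.85 for Ciita (SE 1.02, edgeR adjusted p = 0.526) and -2.04 for Cd86 (SE 0.82, edgeR adjusted p = 0.604), and that of Cd86 was -0.90 without the SR9009 library of mouse 1. Ciita had 23 counts over the libraries of SR9009 and LPS and 29 over those of LPS. At that depth a further fall with SR9009 was not detectable, so its interaction cannot show a differing effect. For Cd74 the interaction was 0.37 (SE 0.66, edgeR adjusted p = 0.962), with SR9009 effects of -1.80 with LPS and -2.17 without.

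**Figure D3:**
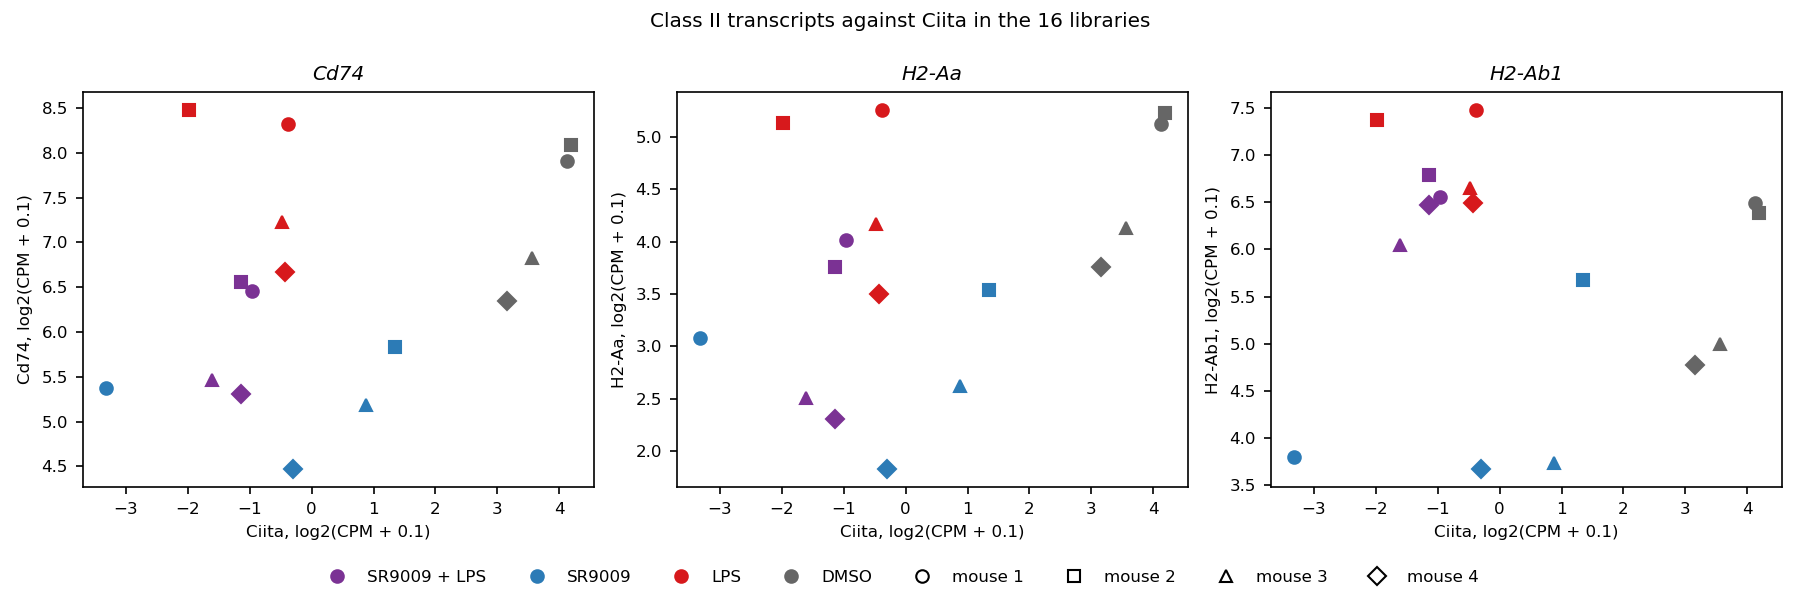
Levels of Cd74, H2-Aa and H2-Ab1 (vertical axes) against Ciita (horizontal axis) in the 16 libraries, all as log2(CPM + 0.1), coloured by group with a marker per mouse. DMSO libraries lie at the right, and the LPS libraries lie to their left at about the same height for H2-Aa, while the SR9009 libraries lie to the left and lower.

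Class II levels per level of Ciita were taken within libraries, as in the plot against Ciita. Within a library, the FPKM ratio of H2-Aa to Ciita was 34.3 to 97.9 in SR9009 and LPS, 8.76 to 12.2 in the 3 SR9009 libraries with a Ciita count, 43.8 to 576 in LPS and 3.72 to 5.19 in DMSO. In both groups given LPS the ratio rests on few Ciita counts. The ratio of H2-Ab1 to H2-Aa, the partner chains of I-A, was 8.66 to 26.9 in SR9009 and LPS, 2.44 to 6.56 in SR9009, 6.92 to 11.9 in LPS and 2.72 to 3.81 in DMSO. Libraries given LPS thus lay above all those not given it. The ratio of Cd86 to Cd80 was 3.28 to 4.74 in SR9009 and LPS, 0.81 to 3.99 in SR9009, 5.40 to 9.60 in LPS and 0.823 to 1.85 in DMSO, and the 3.99 was that of mouse 1. These ratios were chosen after the values had been seen and were not tested.

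**Figure D4:**
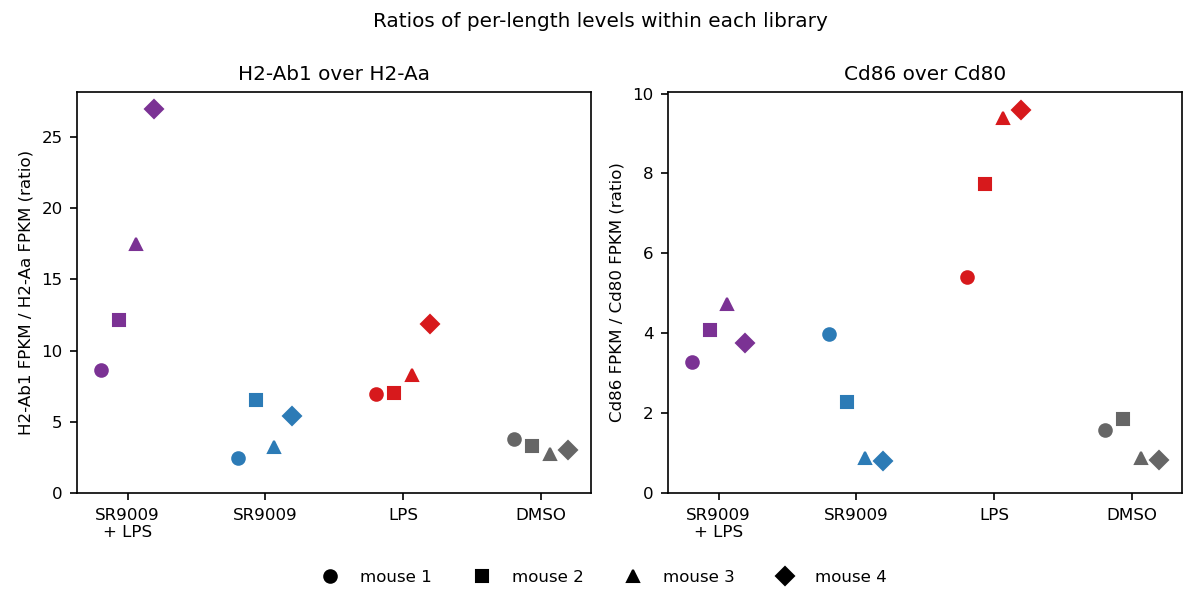
FPKM ratios within each library (vertical axes, linear from 0) for H2-Ab1 over H2-Aa and for Cd86 over Cd80, by group, with a marker per mouse. For H2-Ab1 over H2-Aa the 8 libraries given LPS lie at 6.92 or above and the 8 others at 6.56 or below.

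Mice 1 and 2 often held the highest values of a group. In DMSO they held the highest values of all 10 genes, a pattern seen in 34.8% of tested genes in that group. The count was 8 of 10 in SR9009 and LPS (34.5% of tested genes), 7 in SR9009 (20.3%) and 7 in LPS (32.1%). Mice 1 and 2 held the lowest values of 0 of the 10 genes in each group. Of tested genes, 37.3% had them lowest in SR9009 and LPS, 24.7% in SR9009, 33.9% in LPS and 27.7% in DMSO. Over the 16 libraries, the Pearson correlation with the mean standardised level of Cd74, H2-Aa, H2-Ab1 and H2-Eb1 was 0.685 for H2-DMa, 0.574 for H2-DMb1, 0.481 for Cd86, 0.466 for Cd40, 0.258 for Ciita and 0.0757 for Cd80. The genes outside the 10 with the most similar pattern were Ly6e (r = 0.945), Tmem176b (0.932), Tmem176a (0.923), Ms4a4a (0.904) and Ly6a (0.89). These correlations describe libraries that share mice and treatments. Tmem176b averaged 353 ± 189 CPM in SR9009 and LPS, 139 ± 116 CPM in SR9009, 714 ± 149 CPM in LPS and 439 ± 138 CPM in DMSO (SD, n = 4 each).

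The neighbours of these genes in the pathway were followed through 5 lists. Counts at an unadjusted p under 0.05, and those of DESeq2 and limma-voom, have no share of all tested genes beside them. They are not read as results about the lists. Of 14 tested genes of class II loading and processing (16 listed), edgeR called 0 with SR9009 versus DMSO and 0 with SR9009 and LPS versus LPS, with 0 and 1 at an unadjusted p under 0.05, and DESeq2 and limma-voom called 0. With LPS versus DMSO 2 rose and 0 fell, where 19.4% and 20.4% of tested genes did, and with SR9009 and LPS versus SR9009 again 2 rose and 0 fell, where 14.5% and 15.8% did. Without the SR9009 library of mouse 1 edgeR called 3 higher and 3 lower (Ctsd, H2-DMb2 and Cd9) with LPS versus DMSO. There 26.8% and 30.6% of tested genes were. With SR9009 and LPS versus SR9009 it called 2 higher and 4 lower (the same 3 and Marchf8), where 22.7% and 20.8% of tested genes were. Without that library it also called Ctsd higher with SR9009 versus DMSO, where 0.696% of tested genes were. With SR9009 and LPS versus LPS it called Ctsd higher and Marchf1 lower, where 6.68% and 4.79% were. With all libraries the called genes were Marchf1, a ubiquitin ligase that removes class II and Cd86 from the surface, and Sppl2a, a protease that clears the last Cd74 fragment. Marchf1 averaged 494 ± 112 CPM in LPS and 71.9 ± 10.9 CPM in DMSO (log2 2.78, SE 0.46, edgeR adjusted p = 0.000193). Sppl2a averaged 985 ± 247 CPM in LPS and 289.7 ± 45.2 CPM in DMSO (log2 1.77, SE 0.34, edgeR adjusted p = 0.000628). With SR9009 and LPS versus SR9009, Marchf1 (log2 1.53, edgeR adjusted p = 0.0157) lost its call without mouse 2, mouse 3 or mouse 4 and with the compared groups alone, with an edgeR adjusted p of up to 0.124.

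A further list held 25 tested genes of the class II promoter factors and of the interferon gamma route to Ciita. With SR9009 and LPS versus LPS, 0 of 25 were called by edgeR (4 at an unadjusted p under 0.05, 1 by DESeq2, which was Spi1, lower, and 0 by limma-voom). Without the SR9009 library of mouse 1, edgeR called 3 lower there, namely Kat2b (adjusted p = 0.0025), Spi1 (0.0117) and Ifngr2 (0.0194). In that fit 4.79% of all tested genes were called lower. With LPS versus DMSO 12 rose and 3 fell, where 19.4% and 20.4% of tested genes did. Nlrc5, the class I transactivator related to Ciita, rose (log2 2.98, SE 0.29, edgeR adjusted p = 1.26e-06), and so did Jak2 (log2 3.65) and Spi1 (log2 1.52), the macrophage factor PU.1. Ifngr1, a chain of the interferon gamma receptor, fell (log2 -1.98, SE 0.27, edgeR adjusted p = 2.9e-05). Ifngr2, the other chain, averaged 443 ± 28.5 CPM in LPS and 151.5 ± 19.6 CPM in DMSO (SD, n = 4 each). DESeq2 and limma-voom called Ifngr2 higher. With SR9009 and LPS versus SR9009, 9 rose and 2 fell, where 14.5% and 15.8% did. When the SR9009 library of mouse 1 was left out, 16 rose and 4 fell, where 22.7% and 20.8% did. With all libraries Nlrc5 (log2 3.06) and Socs1 (log2 6.71) were higher and Ifngr1 (log2 -2.04) lower. DESeq2 and limma-voom also called Ifngr2, higher.

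Another list held 20 tested other costimulatory, coinhibitory and adhesion genes, with receptors among the ligands. With SR9009 versus DMSO, 0 were called by edgeR (7 at an unadjusted p under 0.05, 1 by DESeq2, which was the receptor Cd200r1, higher, and 0 by limma-voom). With SR9009 and LPS versus LPS, 1 fell and 0 rose: Tnfsf14, the ligand LIGHT. It had 0.294, 0.589, 0.399 and 0.356 CPM in mice 1 to 4 with SR9009 and LPS, against 0.666, 1.07, 1.36 and 2.07 CPM with LPS, without overlap (log2 -1.65, SE 0.38, edgeR adjusted p = 0.0366). The nearest values of the groups were 0.589 and 0.666 CPM. These levels rest on few counts, as the limit for a count of 0 was 0.171 to 0.178 CPM in SR9009 and LPS. In LPS that limit was 0.185 to 0.250 CPM. The call of Tnfsf14 was lost without mouse 2, mouse 3 or mouse 4, with an edgeR adjusted p of up to 0.410, and with no filter (0.124), and limma-voom gave 0.0962. Without the SR9009 library of mouse 1, Icosl was called higher and Lgals9 lower beside it, where 6.68% and 4.79% of tested genes were. With LPS versus DMSO 11 rose and 3 fell, against 19.4% and 20.4% of tested genes, the higher ones including Cd274, the inhibitory ligand PD-L1 (log2 4.73), Cd200 (log2 4.66), Tnfsf9 (log2 4.42) and Tnfsf15 (log2 3.92). With SR9009 and LPS versus SR9009, 12 rose and 3 fell, against 14.5% and 15.8% of tested genes, among them Icam1 (log2 3.53) higher and Tnfsf14 (log2 -3.19) lower.

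Of 11 tested genes of CD40 signalling, 0 were called by edgeR with SR9009 versus DMSO (0 at an unadjusted p under 0.05, 0 by DESeq2 or limma-voom). With SR9009 and LPS versus LPS the count was also 0 (1 at an unadjusted p under 0.05, 1 by DESeq2, which was Tnfaip3, lower, and 0 by limma-voom). With LPS versus DMSO 7 rose and 0 fell, against 19.4% and 20.4% of tested genes, led by Tnfaip3, a brake on NF-κB (log2 4.34), and the adaptor Traf1 (log2 3.62), and 7 rose again with SR9009 and LPS versus SR9009, against 14.5% of tested genes. Of 10 genes of MHC class I presentation, listed for comparison, 8 rose with LPS versus DMSO and 8 with SR9009 and LPS versus SR9009, beside the same shares of 19.4% and 14.5%, among them Tap1 (log2 2.32 and 2.68) and Tapbp (log2 1.84 and 2.10). With SR9009 versus DMSO and with SR9009 and LPS versus LPS, edgeR, DESeq2 and limma-voom called 0 of these 10, and 5 and 3 had an unadjusted p under 0.05. Without the SR9009 library of mouse 1, edgeR called 2 of them lower with SR9009 and LPS versus LPS, Psmb10 (adjusted p = 0.00324) and Psmb8 (0.00478), both subunits of the immunoproteasome. In that fit 4.79% of all tested genes were called lower. In the interaction edgeR, DESeq2 and limma-voom called 0 genes of the 5 lists, and 0, 2, 6, 1 and 0 had an unadjusted p under 0.05 in the order given here.

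B cells also carry class II and Ciita, and 8 of their markers were listed. Ighm, the IgM heavy chain, had 49.8, 43.1, 9.34 and 12.8 CPM in mice 1 to 4 with SR9009 and LPS, and 68.4, 102.6, 47.2 and 53.5 CPM with SR9009. It had 52.1, 38.0, 17.2 and 20.5 CPM with LPS, and 210.4, 219, 181 and 179 CPM with DMSO. Its edgeR adjusted p was 0.221 with SR9009 versus DMSO (log2 -1.54) and 0.000597 with LPS versus DMSO (log2 -2.63). The 8 markers summed to 12.3 to 54.4 CPM in SR9009 and LPS, 53.8 to 108 CPM in SR9009, 19.4 to 57.0 CPM in LPS and 185 to 226 CPM in DMSO. Without Ighm the other 7 summed to 1.48 to 4.58 CPM in SR9009 and LPS, 3.28 to 6.64 CPM in SR9009, 2.16 to 4.91 CPM in LPS and 5.14 to 7.5 CPM in DMSO. Cd79b, a part of the B cell receptor, had 18 counts over the libraries of SR9009 and LPS, 81 in SR9009, 23 in LPS and 143 in DMSO. Each LPS and each SR9009 and LPS library had less Cd79b per library size than the lowest DMSO library. Cd22, another marker of the list, overlapped DMSO in every other group. It had 4.16, 3.962, 1.541 and 1.498 CPM in mice 1 to 4 with LPS, against 3.459, 5.807, 3.978 and 4.57 CPM with DMSO. With SR9009 it had 2.508, 4.019, 5.396 and 3.421 CPM, and with SR9009 and LPS 3.819, 3.77, 2.621 and 1.126 CPM. The part of these markers' cells in the results was not tested. Ms4a1, Pax5 and Blk, which mark B cells, had at most 5 counts each over the 4 libraries of any group.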

How the data were processed

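Poly(A) RNA was sequenced in 16 libraries, 4 per group. Per the submitters' processing notes, reads were aligned with HISAT2 to GRCm39. The sources used here do not give the counting tool, annotation release or strand setting. The deposited table holds raw counts per gene, with coordinates, and the deposited FPKM values were scaled by the authors per kilobase of gene and to a library size they set. FPKM served for levels between genes and as an alternative unit.

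A filter on low counts (edgeR's filterByExpr by group, with at least 10 counts, and 15 in total) kept 13438 of 56748 genes. With R 4.3.3 and edgeR 4.0.16, a robust quasi-likelihood model with 1 mean per group and TMM scaling (factors 0.738 to 1.26) was fitted to all 16 libraries. P-values were adjusted by Benjamini-Hochberg over all tested genes, with a threshold of 0.05. The common biological coefficient of variation was 0.377. Each SE was taken from the fold change and its F statistic. CPM used TMM-scaled library sizes, and log2 ratios per mouse used a pseudocount of 0.1 CPM. The limit for a count of 0 is 3 counts and covers counting error only. Python 3.11.15, with pandas 2.3.3, numpy 2.4.6 and matplotlib 3.10.9, served for tables and plots.

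The libraries of a mouse share its number in the labels, so the numbers pair the samples. Deviations from group means correlated at a median r of 0.249 in the 24 pairs of libraries of the same mouse and different groups (0.0809 to 0.56), and at -0.0899 in 72 pairs of different mice. A fit with mouse as a factor is called the replicate block. The other alternatives were scaling by RLE or upper quartile, all 26596 genes or a stricter filter (1 CPM in 4 libraries), DESeq2 1.42.0, limma-voom, limma 3.58.1 on log2 FPKM (pseudocount 1 or 0.1), the compared groups alone, each mouse left out, and the SR9009 library of mouse 1 left out with and without the block.

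All 10 genes are named in every comparison. From each list up to 4 genes with the smallest p were named, and the called genes of short lists. Similar genes are the 5 with the highest r. The genes, lists, promoter motifs and alternatives were chosen with earlier results of these data known. The result of the promoter factor and interferon gamma list for SR9009 versus DMSO is not reported here.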

Additional observations from a re-analysis of the deposited data

Results flagged for a closer look

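Among 40 pairs of a gene and a group, 3 had a library far from the other 3 by Dixon's criterion at the 95% level, which chance meets in about 1 of 20 groups. Ciita in LPS was lowest in mouse 2, at 0.152 CPM, with 0.616 to 0.666 CPM in the other mice. H2-Ab1 in SR9009 was highest in mouse 2, at 51.1 CPM, with 12.6 to 13.8 CPM in the other mice. Cd40 in LPS was lowest in mouse 3, at 455.5 CPM, with 616 to 646 CPM in the other mice. The parts of mouse and of depth in these values were not tested.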

How the results depend on the processing

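Counts of the 10 genes called moved with the settings. Shares of all tested genes were taken only for the main fit, the replicate block and the fit without SR9009 replicate 1. For SR9009 and LPS versus LPS, leaving out that library raised the shares from 1.06% higher and 0.737% lower to 6.68% and 4.79%. Counts in the other settings, and counts at an unadjusted p under 0.05, have no such share beside them. They are not read as results about these genes or the lists. For SR9009 versus DMSO the count of 2 became 1 with RLE, upper-quartile scaling, limma-voom and limma on log2 FPKM with either pseudocount, 0 with the compared groups alone, 5 with DESeq2, 5 with the replicate block and 6 with the block and without SR9009 replicate 1. It was 0 to 1 when a mouse was left out. For SR9009 and LPS versus LPS the count of 0 became 1 with DESeq2 and without SR9009 replicate 1, 2 with the replicate block and with the compared groups alone, and 5 with the block and without SR9009 replicate 1. For LPS versus DMSO the count of 3 became 4 with RLE, DESeq2, limma-voom, both FPKM fits, the compared groups alone and without SR9009 replicate 1, 2 without mouse 4, 5 with the replicate block and 6 with the block and without that library. For SR9009 and LPS versus SR9009 the count of 2 became 3 with upper-quartile scaling, DESeq2 and without mouse 1, 5 with the replicate block, 4 without SR9009 replicate 1 and 7 with both. In the interaction the count of 0 became 1 with limma on log2 FPKM at either pseudocount. The cause of these changes was not tested.

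Of the log2 fold changes of the 10 genes, 43 values turned round under an alternative, and 0 of these passed the threshold. For SR9009 versus DMSO, leaving out mice gave -0.76 to 0.14 for H2-DMb1, -0.10 to 0.23 for Cd80 and 0.13 to 1.29 for Cd86. Without SR9009 replicate 1 the values were -0.18 for Cd80 and -0.0819 for Cd86, and with the replicate block as well 0.144 for H2-DMb1, -0.0667 for Cd80 and -0.0998 for Cd86. For SR9009 and LPS versus LPS, H2-DMa gave -0.0363 with limma-voom, and -0.0361 and -0.0699 with limma on log2 FPKM (pseudocount 1 and 0.1). Cd80 gave 0.0487 with upper-quartile scaling, 0.0216 with no filter, 0.013 without SR9009 replicate 1, and -0.0934 to 0.0263 with mice left out.

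For LPS versus DMSO, RLE and DESeq2 gave 0.0531 and 0.0534 for H2-Aa, 0.0599 and 0.0605 for H2-Eb1, and 0.0211 and 0.0215 for H2-DMb1. Limma on log2 FPKM (pseudocount 1 and 0.1) gave 0.009 and 0.0024 for H2-Aa and 0.0349 and 0.0361 for H2-Eb1, and leaving out mice gave -0.113 to 0.0304 for H2-Aa, -0.086 to 0.0509 for H2-Eb1 and -0.144 to 0.0275 for H2-DMb1. For SR9009 and LPS versus SR9009, leaving out mice gave -0.0537 to 0.958 for H2-DMa, -0.0024 to 0.81 for H2-DMb1 and -0.18 to 1.17 for Cd86, counting SR9009 replicate 1 alone among these. Without SR9009 replicate 1 and with the replicate block H2-DMa gave -0.137 and H2-DMb1 -0.0532, and upper-quartile scaling gave -0.11 for Cd86. In the interaction Cd40 gave -0.11 with limma on log2(FPKM + 1), and Cd80 gave -0.27 to 0.19 with mice or SR9009 replicate 1 left out and 0.0502 with that library left out and the replicate block.

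Over all genes, the median log2 fold change with upper-quartile scaling was -0.275 for LPS versus DMSO, against -0.082 with TMM, and -0.251 for SR9009 and LPS versus SR9009, against -0.117 with TMM. Depth limits Ciita most, with 23 to 29 counts per group given LPS.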
